A study of Caenorhabditis elegans with 14 samples.

Results

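RNA polymerase II was mapped on the genome of C. elegans larvae early in starvation, at 6 hr of L1 arrest, a pause in growth that larvae enter on hatching into an environment with no food. The larvae were of the wild-type strain N2, had hatched in buffer without bacteria, and were fixed whole with formaldehyde. Chromatin was recovered with the antibody S2, raised against the polymerase tail phosphorylated at serine 2, and sequenced (ChIP-seq). Of the 14 samples of the series, 4 belong to this time point, 2 of them S2 samples and 2 of them input chromatin that had not been immunoprecipitated. The deposited tables hold 1 column for S2 at 6 hr, which carries the title of the first of the 2 samples, and 1 column for input, which names no time point. With 1 column on each side, values over input are given without a test. For comparison, larvae at 12 hr of arrest were sampled with S2 (n = 1), 4H8 (n = 2) and 8WG16 (n = 1), antibodies to other forms of the same tail, and the same 3 antibodies were used on larvae fed HB101 bacteria for 1 hr after 12 hr of arrest (recovery).

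A gene is transcribed when polymerase assembles near its start and travels along it. The tail of its largest subunit is phosphorylated at serine 2 as elongation proceeds, so this form is known to increase toward the 3' end of genes and to persist past it. Neighbouring C. elegans genes on 1 strand are often transcribed together as operons from a promoter ahead of the first gene. In arrested larvae, energy comes from stored fat and carbohydrate, and DAF-16, the transcription factor of the insulin pathway, is known to hold development back.

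Density is given in RPKM (reads per kilobase, scaled to depth), over each gene model and over a 200 bp window spanning its most upstream transcription start. Ratios are log2((S2 + 5)/(input + 5)), which understates the ratio of thinly covered genes. Over input means at least 2-fold on this scale and below input at most the reverse. The reads are not assigned to a strand, so a gene model also holds polymerase that belongs to an overlapping or adjoining gene. The S2 column at 6 hr rests on about 2592000 reads, the input column on 11905000, and the other ChIP columns on 1322000 to 5863000. At 6 hr the median gene model held 40.0 reads and the median start window 3.00, and a window with 3 reads has a density of 5.79 RPKM, so smaller differences at starts were not detectable. Larvae were used whole, so more cells carrying polymerase and more polymerase per cell cannot be told apart. Intervals are exact Poisson 95% intervals of the reads and cover counting error only.

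At 6 hr few gene models stood over input on the scale of sequencing depth. Of 20314 gene models, 1019 were over input (5.02%), 167 of them at least 4-fold (0.822%), and 1479 were below input (7.28%). The median gene model had 7.32 RPKM against 10.96 RPKM in input, a log2 ratio of -0.31. The 10 gene models with most reads, a ranking that also depends on gene length, held 1.51% of all reads. The top 100 held 7.96% and all 20314 held 74.5%. Scaling both columns on the median of the chemoreceptor genes, which are transcribed in few cells, moved the median log2 ratio of all gene models from -0.31 to 0.45 and the number over input to 5543, and directions near input depend on the scale, and groups are read below against the median of all gene models.

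The 3 genes with most polymerase were sodh-1, acs-2 and gei-7, the only ones at least 16-fold over input. The alcohol dehydrogenase gene sodh-1 (WS190, chromosome V:11888213-11889611) had 733 RPKM (interval 706 to 762) against 21.03 RPKM in input, a log2 ratio of 4.83. The gene acs-2 (V:15567368-15569863) encodes an acyl-CoA synthetase that prepares fatty acids for oxidation, and had 695 RPKM (674 to 715) against 28.6, a log2 ratio of 4.38. The gene gei-7 (V:724209-728105), named icl-1 in RefSeq, encodes the glyoxylate cycle enzyme that lets animals turn fat into carbohydrate, and had 693.5 RPKM (677 to 710) against 29.4, a log2 ratio of 4.34. The counting intervals of all 3 lie far from input.

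These 3 genes were dense in every column of arrest. At 12 hr sodh-1 had 939 RPKM with S2, 922 and 1250 with 4H8 and 1769 with 8WG16, and in recovery between 76.9 and 115 RPKM. At 12 hr acs-2 had 1160 RPKM with S2, 989.6 and 1729 with 4H8 and 971 with 8WG16, and in recovery between 19.7 and 26.4 RPKM, under its input. At 12 hr gei-7 had 904 RPKM with S2, 822 and 1026 with 4H8 and 628 with 8WG16, and in recovery between 32.02 and 38.6 RPKM. The S2 values at 12 hr were higher than at 6 hr for all 3, but none of the differences passed the limma test described below (adjusted p = 0.92 for sodh-1, 0.84 for acs-2 and 0.90 for gei-7). The 3 genes differed at their starts. The start window of acs-2 held 282 RPKM against 40.7 in input and that of sodh-1 150.5 against 24.4, while gei-7, the longest of the 3 at 3897 bp, had 51.3 against 25.3.

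**Figure D1:**
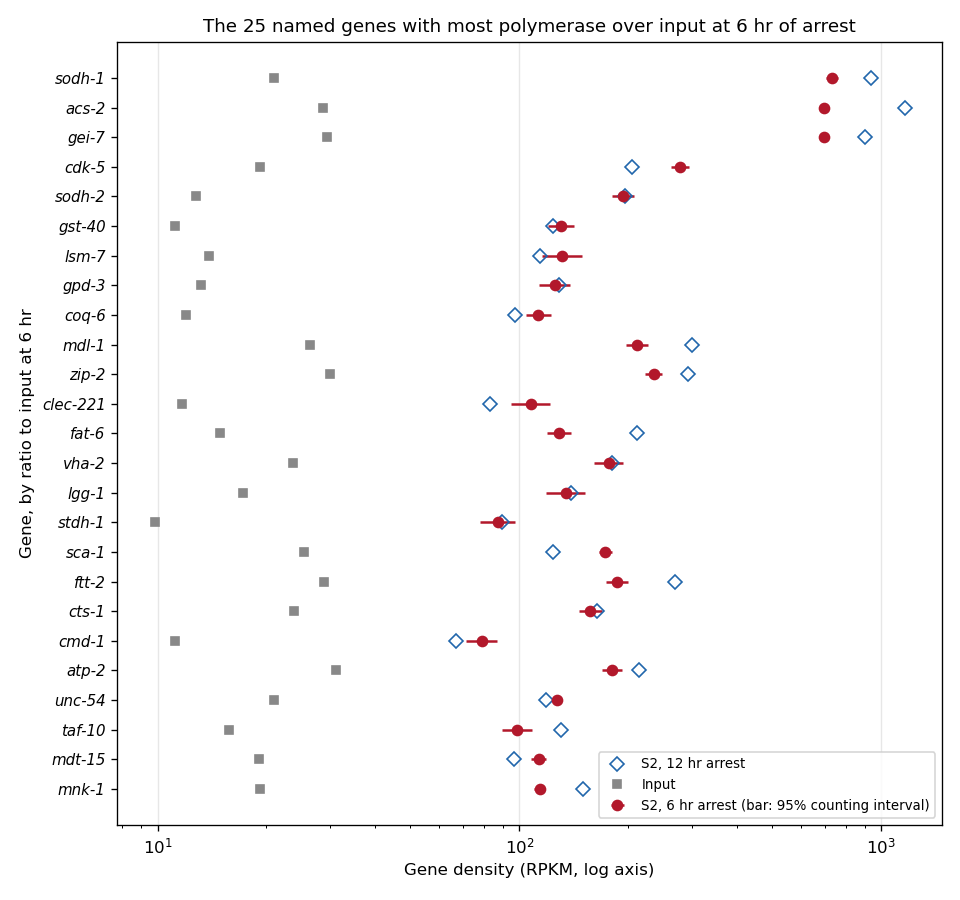
Gene density (RPKM, log axis) of the 25 gene models of at least 500 bp with a public symbol and the highest ratio to input at 6 hr, in S2 at 6 hr (filled circles, bars are 95% counting intervals), S2 at 12 hr (open diamonds) and input (squares). sodh-1, acs-2 and gei-7 stand between 693.5 and 733 RPKM at 6 hr, and input lies between 9.83 and 31.2 RPKM throughout.

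The 25 highest named genes are given by role, a grouping made after they were seen. Several act in energy metabolism. The glyceraldehyde-3-phosphate dehydrogenase gene gpd-3 had 125 RPKM (114 to 138) against 13.2 in input, and its start window held 180 against 14.7. The citrate synthase gene cts-1 had 157 RPKM against 23.8, and atp-2, the beta subunit of ATP synthase, had 180.4 against 31.2. The fatty acid desaturase gene fat-6 had 129 RPKM (119.5 to 139) against 14.9, and coq-6, of ubiquinone synthesis, had 113 against 12.0. The related desaturase gene fat-7 was not enriched, with 4.33 RPKM against 11.5 in input. Reads shared by such near copies may be split between them, which makes both values uncertain.

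The vacuolar ATPase subunit gene vha-2 had 177 RPKM (161 to 193) against 23.6 in input, and its start window held 231 against 32.6, the highest start density of the 25 after that of acs-2. The autophagy gene lgg-1, the worm Atg8 homologue, had 134 RPKM (118.7 to 151) against 17.3. The sarcoplasmic calcium pump gene sca-1 had 173 RPKM (166 to 180) against 25.3, and the calmodulin gene cmd-1 had 78.7 against 11.2. For these 4 genes the start window was more than 2-fold over input as well.

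The bZIP factor gene zip-2, known for the response to infection, had 236 RPKM (223 to 249) against 30.0 in input, and mdl-1, a Mad-like basic helix-loop-helix factor, had 211 (197 to 226) against 26.3. The 14-3-3 gene ftt-2, whose product binds DAF-16, had 186 RPKM (174 to 199) against 28.9. The Mediator subunit gene mdt-15, known as a regulator of fat metabolism, had 113 RPKM (107 to 118.8) against 19.04. The kinase gene mnk-1, 12600 bp long, had 114 RPKM (110 to 117) along its length but 10 reads, or 19.3 RPKM, in its start window. The muscle myosin gene unc-54, 11049 bp long, had 127 RPKM (123 to 131) along its length and 52.1 at its start, and overlaps aex-5, which is over input too.

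Several high values lie beside another dense gene. Of these 25 genes, 18 had a gene model over input within 1000 bp, and in 12 the neighbour faced them tail to tail. Among all gene models of at least 1000 bp the shares were 6.49% and 2.87%. Among those of that length at least 4-fold over input they were 57.6% and 37.4%, so the trait is not particular to the 25. The kinase gene cdk-5, known mainly from neurons, had 279 RPKM, and its 3' end lies 30 bp from that of tag-61, at 275 RPKM, named ant-1.1 in RefSeq, an adenine nucleotide translocator, while its start lies inside another gene model. The dehydrogenase gene sodh-2 had 193.5 RPKM, and its 3' end lies 85 bp from that of sodh-1. The glutathione S-transferase gene gst-40, at 130 RPKM, ends 74 bp from the collagen gene col-103, at 202 RPKM, and lsm-7, of RNA decay, at 131.5 RPKM, overlaps the autophagy gene lgg-2, at 99.8 RPKM. The starts of sodh-2, gst-40 and lsm-7 held 7.72, 11.6 and 7.72 RPKM, close to input at 8.82, 13.02 and 5.88. For such pairs the density of either gene may hold polymerase of the other, and their parts cannot be told apart without strand. By contrast, no gene model over input lay within 10000 bp of gei-7, fat-6, mdl-1, lgg-1, sca-1, ftt-2 or mnk-1.

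Of the 25 gene models with the highest ratio of any kind, 14 carry no public symbol in WS190. Among them C44B7.10 (acer-1 in RefSeq) had 343 RPKM against 21.1 in input, K07B1.6 (tos-1) had 330 against 23.5, and C36A4.9 (acs-19), a further member of the acyl-CoA synthetase family by name, had 264 against 22.96. Among the 167 genes at least 4-fold over input, 33 were shorter than 500 bp, and 19 were microRNAs of about 22 bp. Values of microRNAs were scattered both ways. Of 135 listed, 30 were over and 43 below input, and their median log2 ratio of -0.31 was that of all gene models. The microRNA gene mir-52 had 520 RPKM against 32.9 in input and mir-58 was also over input, but 13 of the 167 rested on fewer than 10 reads, so single short models are imprecise.

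Genes of fasting metabolism, muscle, the vacuolar ATPase and stress regulation stood over input more often than the 5.02% of all gene models. In 23 of 41 gene lists the share over input was larger than that. Of 26 genes of fasting metabolism, 6 were over input, namely sodh-1, acs-2, gei-7, sodh-2, hacd-1 and cpt-1, and 5 of these reached 4-fold, yet the list's median log2 ratio was 0.20, so the other members lay much closer to input. The acyl-CoA dehydrogenase gene acdh-1 had the lowest ratio, at 2.91 RPKM against 9.66 in input. Of 22 genes of lipid synthesis 7 were over input, including fat-6, fat-5 at 128 RPKM against 28.1, and the acetyl-CoA carboxylase gene pod-2. Of 11 genes of glycolysis and gluconeogenesis 4 were over input, gpd-3, gpd-2, pyc-1 and the enolase gene enol-1, and the median log2 ratio was 0.77. None of the 8 trehalose genes was over input, and their median was 0.38, with tps-1 highest at 26.9 RPKM against 14.5.

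Stress and nutrient regulators were among the highest lists. Of 17 bZIP and other stress transcription factor genes 7 were over input, with a median of 0.84. They included the hypoxia factor gene hif-1 at 116 RPKM (a log2 ratio of 2.17) and hlh-30, the factor of lysosome and autophagy genes, at 80.8 against 16.5, besides xbp-1, skn-1 and pqm-1. Of 13 insulin pathway genes 4 were over input, ftt-2, par-5, daf-16 and akt-1, with daf-16 at 47.6 RPKM against 14.2. Among 28 genes of AMPK, TOR and autophagy 6 were over input, all of them autophagy genes (lgg-1, lgg-2, atg-18, atg-7, atg-13 and unc-51). Of 20 vacuolar ATPase genes 9 were over input, the largest share of any list with a median of 0.87. Of their start windows 4 of 20 were over input, beside 7.61% of all start windows. Of 32 genes of membrane traffic and small GTPases 10 were over input, with rab-7 at 61.1 RPKM against 11.4.

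Of 39 muscle genes 15 were over input and 7 at least 4-fold, with a median log2 ratio of 0.64, and 35 of 39 lay above input. Besides unc-54, the paramyosin gene unc-15 had 114 RPKM against 19.3 and the actin gene act-4 had 140 against 26.2. Start windows were over input in 4 of the 39, beside 7.61% of all start windows. Marker genes of larval tissues differed. The summed density of 10 muscle markers was 571 RPKM against 186 in input, and that of 5 pharynx markers 123 against 71.1. For 9 neuron markers it was 185.5 against 120, and for 10 hypodermis markers 211 against 170. For 10 intestine markers it was 139 against 140, with elt-2, the main intestinal GATA factor, at 10.4 RPKM against 17.3, and no defining marker of intestine but the filament gene ifb-2 was over input. The median log2 ratio of the intestine markers was -0.25, near the -0.31 of all gene models. The part of tissue make-up in the list values was not tested.

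Lists of growth genes had shares over input on either side of the 5.02% of all gene models. Their medians lay above the -0.31 of all gene models. Of 83 ribosomal protein genes 4 were over (4.82%) and 7 below input (8.43%), with a median density of 32.3 RPKM against 41.3 in input. Their median log2 ratio was -0.17, which became 0.83 after scaling on chemoreceptor genes, both above the median of all gene models under the same scale. None of 32 aminoacyl-tRNA synthetase genes was over input, and their median was 0.00, or 0.99 after that scaling. Of 28 translation factor genes 3 were over input (10.7%), with a median of 0.12. Of 15 ribosome biogenesis genes 1 was over input (6.67%), the growth regulator gene ncl-1 at 80.9 RPKM against 17.7, with a list median of 0.13.

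Lists of cuticle, immunity, germline and adult genes had medians under the -0.31 of all gene models, of which 5.02% were over and 7.28% below input. Of 191 collagen and cuticle genes 5 were over and 59 below input, with a median of -0.69, or 0.10 after that scaling. For 275 C-type lectin and lysozyme genes the median was -0.79, with 4 over, led by clec-221 at 107.5 RPKM against 11.7, and 58 below. For 47 germline genes it was -0.63, or 0.26 after that scaling, with none over, and for 66 sperm genes -0.56, with 2 over, msp-38 and spe-29, and 19 below. All 6 yolk protein genes, made in adults, lay under input, from 0.82 to 7.54 RPKM. Among 1353 chemoreceptor genes 4 were over input, with srt-47 highest at 63.2 RPKM against 18.4, and the median was -0.66. Of 78 histone genes, 34 are listed at 0 in both columns. Another 4 were over input, his-37, his-41, his-24 and his-72. Their share of 5.13%, beside 5.02% of all gene models, counts the 34 genes at 0, which could not be over input.

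**Figure D2:**
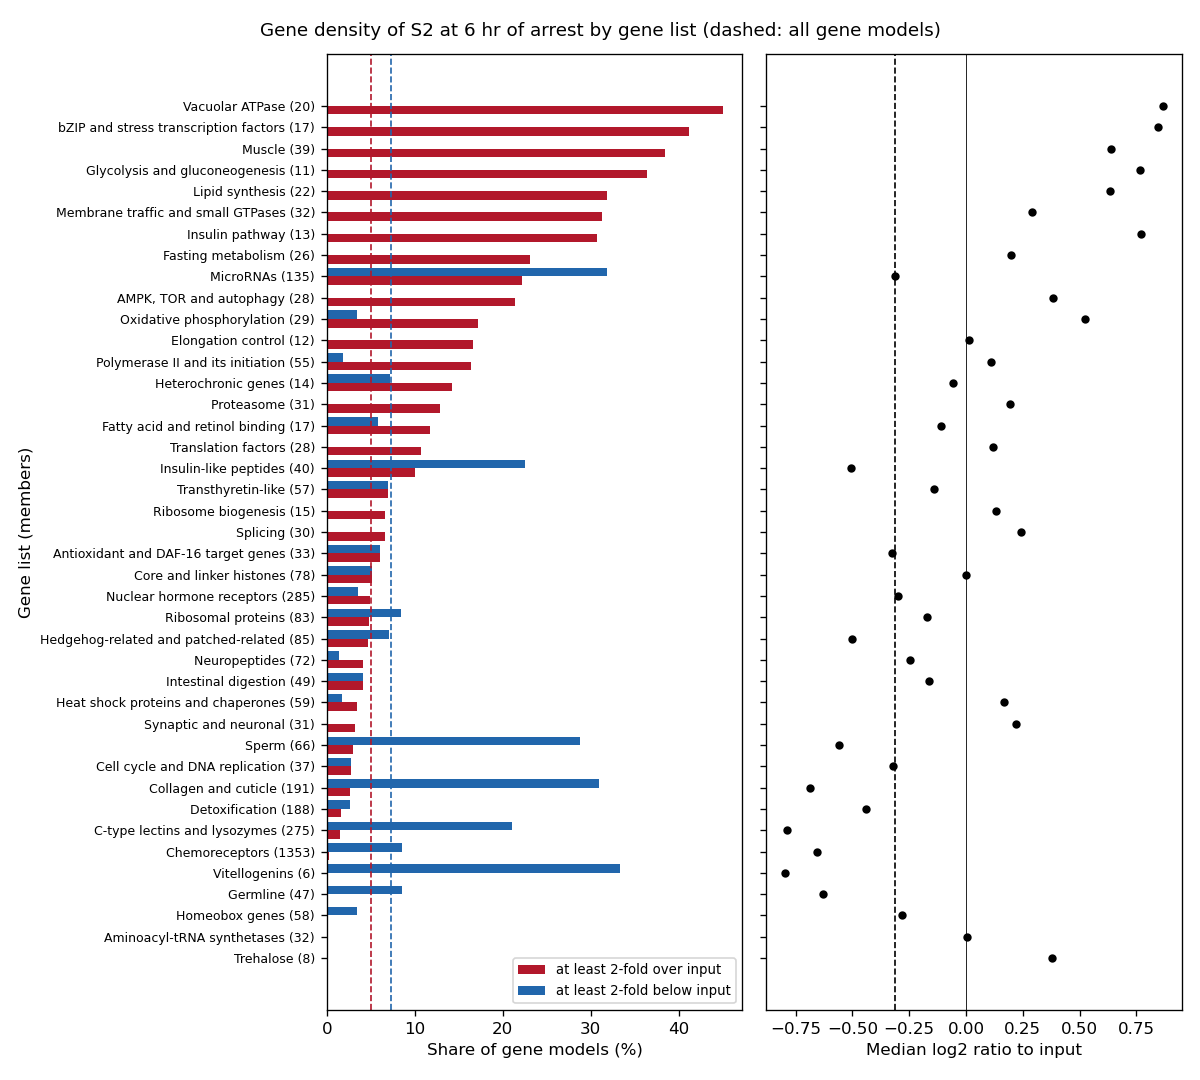
Share of each gene list (members in brackets) at least 2-fold over input (red) and at least 2-fold below input (blue) in S2 gene density at 6 hr of arrest, and the median log2 ratio to input. Dashed lines are the values of all gene models, 5.02%, 7.28% and -0.31. By share over input, vacuolar ATPase, stress factor and muscle genes are highest, at 9 of 20, 7 of 17 and 15 of 39.

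Start windows and gene bodies were partly separate. In all, 1546 start windows were over input (7.61%) and 3674 below (18.1%). In 16323 gene models of at least 1000 bp, the length at which a start window is a small part of the gene, 278 had both start and gene over input. Another 159 had the gene over input with a start at or under input, called here bodies without a start. A further class, of 197 gene models, had a start over input with a gene density at or under input, called here start-only genes (1.21%). The median start density was 54.4 RPKM in the first class, 7.72 in the second and 30.9 in the third, and the median gene density was 48.6, 40.1 and 7.86.

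**Figure D3:**
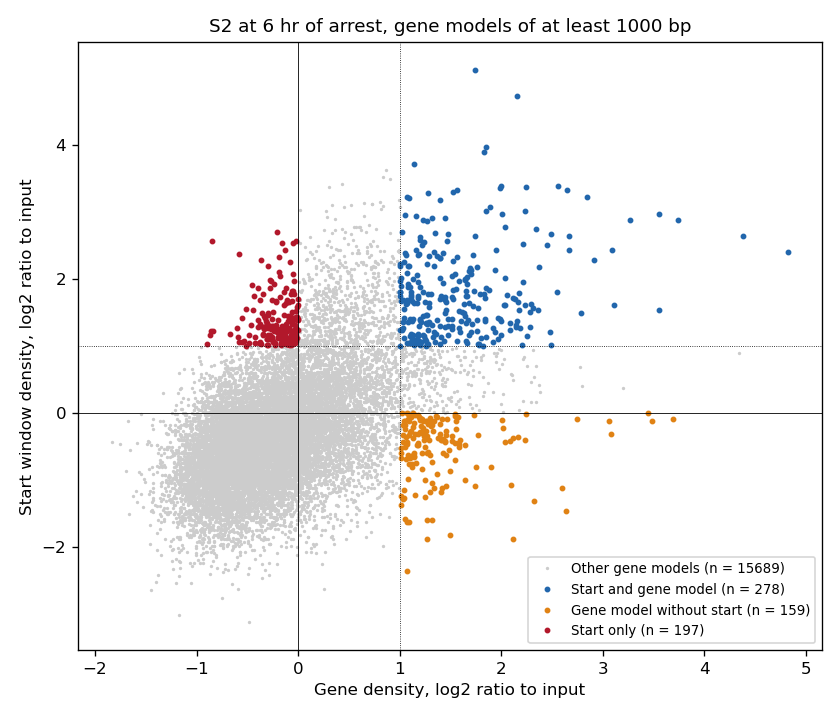
Log2 ratio to input of the start window (vertical) against that of the gene model (horizontal) in S2 at 6 hr, for gene models of at least 1000 bp. Dotted lines mark 2-fold. The 197 start-only genes fill the upper left, the 278 genes with both the upper right and the 159 bodies without a start the lower right.

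Bodies without a start often met another dense gene at their 3' end, as did other genes over input. Of the 159, 54 had a gene over input on the other strand whose 3' end lay within 1000 bp of their own, compared with 48 of 278 (17.3%) among genes with both and 469 of 16323 (2.87%) among all gene models of that length. In 36 of the 54 the facing gene was the denser. Across all gene models of this length, 178 of 469 were over input where the facing gene was over input, and the share was 7.86% where the facing gene lay between input and 2-fold, and 1.44% where it lay at or under input. The steroid dehydrogenase family gene stdh-1 shows the arrangement: it had 87.1 RPKM against 9.83 in input but no read in its start window, and its 3' end lies 151 bp from that of C06B3.6, at 51.2 RPKM. Others, such as the aquaporin gene aqp-1, the transporter gene glt-6 and the aldehyde dehydrogenase gene alh-8, lie 87, 8 and 4 bp from a facing gene over input. The tropomyosin gene lev-11 belongs to this class with no such neighbour, at 84.5 RPKM along 10092 bp and 5.89 RPKM at its most upstream start. The desaturase gene fat-6 likewise had 11.6 RPKM at its start against a similar level in input (log2 ratio -0.09), and its facing gene VZK822L.2 had 4.12 RPKM.

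Start-only genes mostly lay behind another gene, as did other genes with a start over input. Of the 197, 167 (84.8%) had a gene model on the same strand ending within 1000 bp ahead of their start, against 4402 of 16323 among all gene models of that length (26.97%), 900 of 1230 (73.2%) among those with a start over input, and 130 of 278 (46.8%) among genes with both start and gene over input. Within 500 bp the counts were 141 (71.6%) and 2568 (15.7%). The median distance was 231 bp. The genes ahead had a median log2 ratio of 0.11, against -0.31 for upstream neighbours in general, and 16 of the 197 (8.12%) had a gene model over input within 1000 bp of the start, against 304 of 16323 (1.86%). Divergent neighbours, starting within 1000 bp on the other strand, were found beside 10 of them (5.08%) and beside 2619 of 16323. The start-only genes were longer than average, with a median of 3453 bp against 2367 bp.

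The distance to the gene ahead went with start density across the whole genome. Where the upstream gene on the same strand ended up to 100 bp ahead, the median start window had 25.0 RPKM against 10.2 in input, and 50.0% of 382 were over input. Between 100 and 200 bp the median was 20.2 RPKM and 43.6% of 845 were over, between 200 and 500 bp 7.72 RPKM and 18.2% of 1307, and between 500 and 1000 bp 5.79 RPKM and 5.02% of 1813. Beyond 1000 bp the share stayed between 1.77% and 2.66%. Start windows also went with the level of the gene ahead. With an upstream gene over input 58.4% of 173 start windows were over input, with one between input and 2-fold 47.3% of 1112, and with one at or under input 8.52% of 3062, compared with 2.39% of 11446 with none within 1000 bp. The closest of these start windows lie at or just past the 3' end of the upstream gene, so polymerase leaving that gene and polymerase starting at the next cannot be told apart in them.

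**Figure D4:**
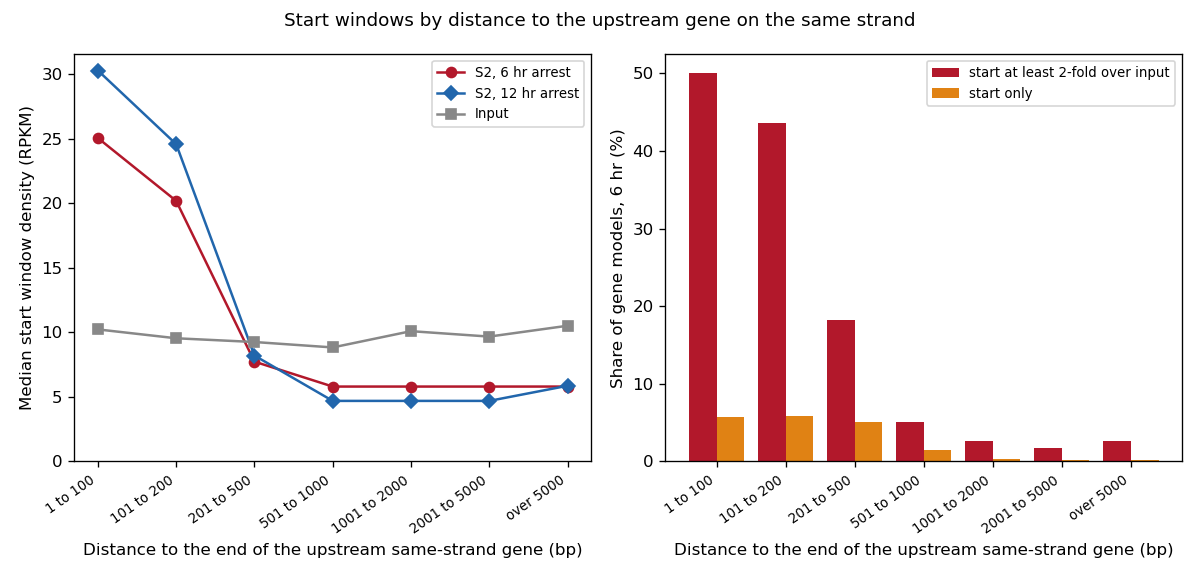
Start windows of gene models of at least 1000 bp, grouped by the distance (bp) from the end of the nearest upstream gene on the same strand. Left, median start density (RPKM) in S2 at 6 hr, S2 at 12 hr and input. Right, share over input and share start-only at 6 hr (%). Start density is high at up to 200 bp and flat beyond 500 bp, while input stays between 8.82 and 10.5 RPKM.

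The start-only genes with the highest start ratios had varied functions, and 19 of the 20 named had a same-strand gene within 1000 bp ahead. The histone deacetylase family gene hda-6 (II:13882610-13887927), named hda-10 in RefSeq, had 78.1 RPKM at its start (55.1 to 105) against 7.73 in input, and 10.2 against 12.5 along the gene, with ing-3 ending 127 bp ahead. The germ granule gene pgl-2 (III:8670456-8674958) had 59.8 RPKM at its start (40.6 to 84.9) against 5.88, and 6.51 against 15.7 along the gene, with fli-1 ending 272 bp ahead. The DNA repair gene fcd-2, related to the Fanconi anaemia genes, had 46.3 RPKM at its start against 3.78. The start windows of these 3 genes rest on 24 to 40 reads each. At 12 hr the start of hda-6 had 37.3 RPKM with S2, 50.4 and 29.1 with 4H8 and 21.8 with 8WG16, all lower than at 6 hr and all above input. That of pgl-2 had 37.45 RPKM with S2, 44.6 and 29.1 with 4H8 and 17.8 with 8WG16.

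The gene of the muscle potassium channel regulator sup-10 had 96.4 RPKM at its start (71.6 to 127) against 22.7 in input, and 6.10 along the gene, and it lies 218 bp behind nhr-1, at 40.7 RPKM, the one case of the 20 with a gene over input within 1000 bp of its start. The intraflagellar transport gene daf-10 had 57.9 RPKM at its start against 18.1, 264 bp behind the polymerase subunit gene rpb-12, and the BBSome gene bbs-9 had 79.6 against 22.6. The kinesin-associated gene kap-1, with 54.01 RPKM against 7.14, was the exception without an upstream neighbour, and its start lies inside the phosphatase gene gsp-2.

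Of 31 synaptic and neuronal genes none was start-only and of 39 muscle genes 1, beside 1.21% of all gene models of at least 1000 bp.

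Some starts of the class had higher values in other columns, though none of the next 3 passed the test between 6 hr and 12 hr (adjusted p = 0.064 for smu-1, 0.25 for hst-2 and 0.43 for mdt-17 by limma). The splicing gene smu-1, 17053 bp long, had 94.5 RPKM at its start at 6 hr against 23.1 in input, 307 with S2 at 12 hr, 405 and 174 with 4H8, and 284 with 8WG16. The heparan sulfate sulfotransferase gene hst-2 had 84.9 RPKM against 19.7, 188 with S2 at 12 hr, 337 and 252 with 4H8, and 320 with 8WG16. Their gene densities at 6 hr were 7.71 and 6.68 RPKM, at or under input at 8.19 and 7.65. For the Mediator gene mdt-17 the start density was 47.04 RPKM at 6 hr, 91.4 at 12 hr and 544 with S2 in recovery.

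Without neighbours the class was small. With no other gene model within 1000 bp of the start, 17 of the 197 remained, and with no gene model over input within 1000 bp, 181. The one with the highest ratio of the 17, Y48G10A.4, had 110 RPKM at its start against 14.7 in input and 7.23 along 14995 bp. The LKB1 kinase gene par-4, which acts upstream of AMPK, is start-only with no gene on the same strand within 1000 bp ahead, with 23.2 RPKM against 7.98 at the start. The limits of the class are not sharp: just inside on the start ratio lies the ribosomal protein gene rps-23, with 40.5 RPKM against 17.6, and just outside the chemoreceptor gene srz-6, with 30.9 against 13.02, while on the gene ratio sri-18, at 3.46 RPKM in both columns, is just inside and C34C12.2, at 11.1 against 11.1, just outside.

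The classes kept their shape in the other columns. Measured as 5' bias, the log2 ratio of start + 5 to gene + 5, start-only genes had a median of 1.43 at 6 hr, which the class rule sets, and at 12 hr of 1.482 with S2, 1.203 and 1.04 with 4H8 and 0.83 with 8WG16. All gene models of at least 1000 bp had medians between -0.11 and 0.00 in these 4 columns. In recovery the median of the start-only genes was 1.37 with S2, 0.92 and 0.58 with 4H8 and 0.35 with 8WG16, and in input it was -0.14. The S2 columns had the higher bias at both states. Bodies without a start had -1.49 with S2 at 12 hr and between -1.202 and -0.56 with 4H8 and 8WG16, against -0.02 in input. The median start density of the 197 start-only genes was 30.9 RPKM at 6 hr and 8.40 in input, which chose them, and at 12 hr 29.3 with S2, 23.2 and 19.4 with 4H8 and 14.8 with 8WG16.

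**Figure D5:**
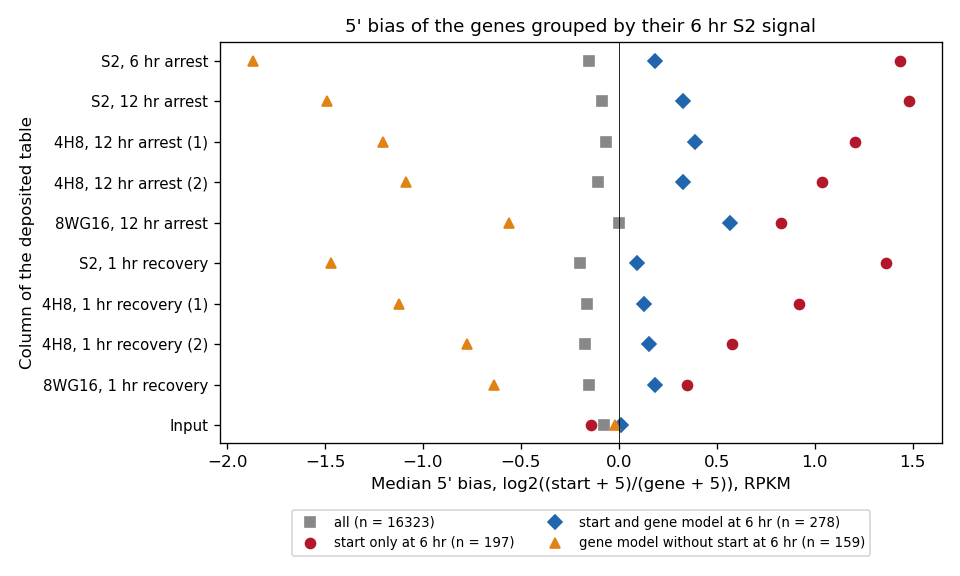
Median 5' bias, log2((start + 5)/(gene + 5)) in RPKM, of genes grouped by their S2 signal at 6 hr, in each deposited column. The groups were chosen on the top row and on input. Start-only genes have positive medians in all 9 ChIP columns, from 0.35 to 1.482, and -0.14 in input, and bodies without a start have negative ones.

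The densest genes at 6 hr were dense throughout arrest. The 167 genes at least 4-fold over input at 6 hr had a median gene density of 102 RPKM there, by choice, 103.9 with S2 at 12 hr, 93.1 and 86.7 with 4H8 and 59.4 with 8WG16, against 15.8 in input. In recovery the medians were 71.4 with S2, 66.4 and 46.4 with 4H8 and 35.8 with 8WG16. The quartiles with S2 were 72.6 to 141 RPKM at 6 hr, 65.02 to 183.5 at 12 hr and 30.98 to 124 in recovery.

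Whether S2 polymerase moved between 6 hr and 12 hr of arrest was tested with limma over all 9 ChIP columns, in which the single S2 columns were assumed to vary like the pairs of 4H8 samples. No gene model of 7240 tested passed an adjusted p of 0.05 for gene density (0%), and 500 had an unadjusted p under 0.05. Of the 167 genes at least 4-fold over input, 163 were tested, with a median log2 difference of 6 hr minus 12 hr of -0.05, against -0.02 for all tested. The differences at acs-2 (-0.74 ± 0.48, log2 ± SE), fat-5 (-0.88 ± 0.47) and col-103 (-0.84 ± 0.36) did not pass (adjusted p = 0.84, 0.79 and 0.72 by limma). Without the first or the second 4H8 column at 12 hr, 69 and 73 genes passed, and without the first or the second recovery 4H8 column 0 passed by limma, with 712 and 722 at an unadjusted p under 0.05.

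Start windows passed more often, under the same assumption and from 1 S2 column at each time. The counts for genes and for starts are not on an equal footing. To the 2 degrees of freedom of each fit, limma added 43.8 shared over start windows but 4.26 shared over gene models. Of 6754 tested 244 passed (3.61%), 236 of them lower at 6 hr than at 12 hr (3.49%) and 8 higher (0.118%). The number was 22 after scaling on chemoreceptor genes, 21 of them lower, which moved the median log2 difference of all start windows from -0.22 to -0.65. With quantile normalization it was 84, 69 of them lower and 15 higher, and with no filter on low densities none of 20314 passed by limma, with 1766 at an unadjusted p under 0.05. The 236 windows had a median of 15.4 RPKM at 6 hr and 83.8 with S2 at 12 hr, which chose them, and 19.6 in input. With the other antibodies at 12 hr their medians were 112.5 and 65.2 RPKM with 4H8 and 92.9 with 8WG16, and in recovery 26.5 to 35.5 RPKM. Over all 6754 tested windows the median was 17.4 RPKM at 6 hr and 19.9 with S2 at 12 hr. Of 155 start-only genes tested, 9 were lower at 6 hr and none higher, with a median difference of -0.14.

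Among genes with a public symbol the largest difference was at rpb-7 (I:3031213-3032939), a subunit of polymerase II itself, with 77.8 RPKM at 6 hr and 556 at 12 hr with S2, 755 and 455 with 4H8 and 566 with 8WG16, with 42 RPKM in input. Another gene model, Y54E10BR.2, lies 29 bp from the start of rpb-7, so the window may hold polymerase of that gene too. The difference was -2.76 ± 0.46 (limma, adjusted p = 0.000565). It passed in 7 of 9 alternative settings, with adjusted p from 2.59e-06 to 0.52. The cyclin C gene cic-1, of the Mediator kinase module, had 7.72 RPKM at 6 hr and 78.4 at 12 hr (-2.71 ± 0.56, adjusted p = 0.00355, 7 of 9 settings), and the proteasome gene rpn-5 had 7.72 and 74.9 (-2.65 ± 0.53, adjusted p = 0.00246, 8 of 9 settings). The phosphatase regulator gene ppfr-1 and the F-box gene fbxa-67 complete the 5 largest, at 27 against 200.1 RPKM and 1.93 against 39.8 RPKM. Of the genes described above, cdk-5 had a start lower at 6 hr, 71.6 against 366 RPKM (-2.27 ± 0.48), while the difference along the gene was 0.43 ± 0.44. The start of cdk-5 lies inside another gene model, so its window may hold polymerase of that gene too.

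By list, 5 of 42 tested start windows of polymerase II and initiation genes were lower at 6 hr, 4 of 22 of oxidative phosphorylation genes, 4 of 78 of ribosomal protein genes, 3 of 20 of translation factor genes and 2 of 23 of proteasome genes, 3 of 34 of chaperone genes, 2 of 18 of aminoacyl-tRNA synthetase genes, 2 of 23 of splicing genes, 2 of 30 of homeobox genes and 2 of 32 of histone genes, beside 3.49% of all tested. These are the lists with at least 2 lower starts, and the counts are small. Of nuclear hormone receptor genes 1 of 95 was lower. None was lower among 87 tested of collagen and cuticle genes, 83 of microRNAs, 40 of chemoreceptors, 38 of neuropeptides and 29 of muscle genes. Unlike start-only genes, the lower starts seldom had a gene ahead: 35 of 236 (14.8%) had a same-strand gene ending within 1000 bp, against 34.6% of all tested. Among the 8 starts that were higher at 6 hr, the evidence was thinner. The dosage compensation gene sdc-1 had 324 RPKM at 6 hr against 8.19 at 12 hr, but input had 215 and the 4H8 pair at 12 hr had 168 and 1.08. The copper transporter gene cua-1 had 59.8 RPKM against 4.68, with 51.2 in input. The molybdenum cofactor gene moc-2 had 100.3 RPKM against 19.9, well over its input of 11.3 (2.08 ± 0.53, adjusted p = 0.0148, 7 of 9 settings). The cathepsin B-like protease gene cpr-4 and the fatty acid and retinol binding gene far-6 were at 25.1 against 1.17 RPKM, with 12.2 in input, and at 23.2 against 2.34 RPKM, with 16.8 in input, and passed in 6 of 8 and 3 of 8 settings.

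The 5' bias differed between the times in 116 of 7539 gene models (1.54%), 113 with less bias at 6 hr (1.5%) and 3 with more (0.0398%). The number was 13 with a pseudocount of 1 RPKM, 12 after scaling on chemoreceptor genes, 0 with no filter (1442 at an unadjusted p under 0.05 by limma), and 352 or 384 without the first or the second 4H8 column at 12 hr. The median difference over all tested was -0.19. Of 159 start-only genes tested, 8 had less bias at 6 hr and none more, and of 159 bodies without a start 5 had less and 1 more.

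Polymerase was unevenly spread over the chromosomes. On chromosome III 7.61% of gene models were over input and on I 6.45%, on IV 5.44%, on II 4.75%, on V 4.11%, and on X 2.56%. Start windows followed the same pattern, from 12.8% on III to 3.02% on X. The start-only genes were placed likewise, with 43 of 197 (21.8%) on III, which holds 13.5% of gene models of that length, and 18 (9.14%) on X, which holds 13.9%.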

How the data were processed

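The authors deposited RPKM densities, of whole gene models and of 200 bp windows at the most upstream start, and fold enrichment over input, a ratio whose input was not allowed under its median, per the file headers and the labels. The aligner is not given in the sources used here. Coordinates are those of WS190. The S2 column at 6 hr carries the title of 1 of 2 samples, and the input column names none: whether either pools samples is not stated. Replicates are biological, per the series' design text.

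Reads were recovered from the RPKM steps: at 6 hr 97.3% of gene values and 91.1% of start values were whole reads within 0.1. A total of 1 row without coordinates was left out. RefSeq names matched 19706 of 20314 models. Ratios used a pseudocount of 5 RPKM. The fits (limma 3.58.1, R 4.3.3, lmFit and eBayes with trend, two-sided, Benjamini-Hochberg over all genes) used log2(RPKM + 5), 9 ChIP columns in 7 groups, and a mean of at least 10 RPKM. Only the fit of gene density was run on simulated data. Every simulated column varied like the 4H8 pairs, so the assumption about the S2 columns was not tested. Python 3.11.15, pandas 2.3.3, numpy 2.4.6, scipy 1.17.1 and matplotlib 3.10.9 made tables and plots.

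Named genes are the 25 highest gene models of at least 500 bp, the 20 highest start-only genes, the 3 highest and 1 lowest of each list, the 5 highest of at least 3000 bp, the 5 highest with no start signal, and the 5 largest start differences each way. Others were chosen after their values were seen. Members, lists and tests were chosen with earlier results of these data known. A list of mitochondrial ribosome genes matched no symbol. A planned motif search in promoters was not run, since no sequence was used here. The tail-to-tail and upstream arrangement of genes was examined after the data were seen.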

Additional observations from a re-analysis of the deposited data

How the results depend on the processing

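Counts over input kept within 1.5 times under pseudocounts of 1 and 10 RPKM and the authors' deposited fold enrichment, for genes and for starts, but scaling on chemoreceptor genes gave 5543 gene models and 5317 start windows over input. Genes below input numbered 5420 and 291 with pseudocounts of 1 and 10, 137 with that scaling and 9047 by the authors' deposited fold enrichment. Start-only genes numbered 394 and 100 with pseudocounts of 1 and 10, 319 by the deposited enrichment, 14 where the start had to reach 4-fold, 622 where the gene could reach a log2 ratio of 0.5, 17 with no gene model within 1000 bp, and 181 with no enriched one, an alternative chosen after seeing the data. Scaling on chemoreceptor genes gave 171 and a length of 2000 bp 160. The members changed with that scaling: of the 20 named start-only genes only pgl-2 stayed in the class. The gene log2 ratio of hda-6, for example, moved from -0.20 to 0.72. The number of lists with a larger share over input than all genes, 23, stayed between 21 and 28.

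Between 6 hr and 12 hr, genes passing for gene density numbered 2 with a pseudocount of 1, 4 with no filter, 56 with a filter of 20 RPKM, 24 after scaling on chemoreceptor genes and 0 to 73 without 1 of the 4H8 columns. Starts passing numbered 0 with no filter (1766 with an unadjusted p under 0.05), 84 with quantile normalization, 22 after scaling, and 160 to 312 without 1 of the 4H8 columns, with 160 lacking the second recovery column. For 5' bias they numbered 13, 0, 72 and 12 with a pseudocount of 1, no filter, a filter of 20 RPKM and scaling, and 85 to 384 without 1 of the 4H8 columns (352 and 384 lacking the first or second at 12 hr). The shared degrees of freedom varied too, for gene density from 2.31 with no filter to infinite with a filter of 20 RPKM. The cause of the changes in number was not tested. With an antibody pair reduced to 1 column, that column was assumed to vary like the remaining pair. No paired analysis was possible because S2 has a single column at 6 hr and at 12 hr. Depth limits the starts most, at a median of 3.00 reads per window.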

Other observations

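Among gene groups not described so far, 14 of 285 nuclear hormone receptor genes were over input, close to the 5.02% of all gene models, and their median log2 ratio was -0.30, or 0.46 after scaling on chemoreceptor genes. The highest was nhr-14, at 80.1 RPKM against 17.5 in input, and nhr-49, whose product is known to control the fasting response of fat metabolism, was among the 14. Of 55 genes of polymerase II and its initiation 9 were over input along the gene and 16 at the start, beside 5.02% of all gene models and 7.61% of all start windows. The highest along the gene was the TFIID gene taf-10 at 98.5 RPKM against 15.7, although taf-10 overlaps K03B4.2, itself over input. Of 31 proteasome genes 4 were over input (12.9%), with pas-7 highest at 73.4 RPKM against 24.6, and none was below.

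None of 58 homeobox genes was over input along the gene, beside 5.02% of all gene models, with ceh-20 highest at 24.3 RPKM against 11.1. The cell cycle inhibitor gene cki-1 was the one gene over input of 37 cell cycle and replication genes (2.70%), at 60.6 RPKM against 16.5. Of 40 insulin-like peptide genes 4 were over (10%) and 9 below input (22.5%, beside 7.28% of all gene models). The gene ins-27 had 55.1 RPKM against 16 and ins-6 had 5.90 against 27.6, in gene models of 295 and 393 bp. Of 72 neuropeptide genes 3 were over input (4.17%, close to the share of all gene models), led by nlp-35 at 72.6 RPKM against 13.02. Of 188 detoxification genes 3 were over input (1.60%), and the highest, gst-40, ends beside col-103.

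Gene models of at least 10000 bp had a median log2 ratio of 0.02, above the -0.44 of models between 1000 and 2000 bp.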
